A study of Mus musculus with 4 samples.

Results

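The Snrpn-Ndn domain is a cluster of imprinted genes on mouse chromosome 7, taken here from chr7:59218750-62474510 (mm10), a stretch of 3.26 Mb. It was described through 7 genes (Snrpn, Snurf, Ndn, Magel2, Mkrn3, Peg12 and Ube3a) and through every peak of acetylated lysine 27 of histone H3 (H3K27ac) in that stretch. H3K27ac marks active promoters and enhancers. The peaks numbered 36 of 91557 in Smchd1-deleted cells and 13 of 63613 in Smchd1-control cells, counting chromosomes 1 to 19 and X. The domain was chosen by its surplus of deleted peaks over control peaks, so its peak numbers, the overlap of its lists and the enrichment of its peaks are a description, and no test was made on them.

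The cells were neural stem cell lines from female Smchd1 del/fl mouse embryos of stage E14.5. Each line was divided once established. Deleted cells were the Smchd1 del/del part, transduced with an MSCV-Cre-puro retrovirus, selected with puromycin from 24 h and harvested at day 7. Control cells were the part that was not transduced, so deletion, transduction and selection cannot be told apart. The control ChIP is titled Smchd1 fl/fl and given as Smchd1 del/fl in its genotype field, and the genotype field of its input reads Smchd1 del/del. Both groups carried a maternal X of strain 129 with an Xist deltaA allele and a paternal Castaneus X, and the strain field names C57BL/6. Each group was 1 ChIP library with 1 whole-cell-extract input, from a culture numbered 1 in both groups. The antibody field names H3K27me3, whereas the sample titles give H3K27ac. There were no replicates, and intervals below cover counting error only.

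The domain is best known from its human counterpart, whose loss on the paternal chromosome causes Prader-Willi syndrome and whose loss on the maternal chromosome causes Angelman syndrome. Snurf, Snrpn, Ndn, Magel2, Mkrn3 and Peg12 are expressed from the paternal allele, under an imprinting centre at the Snurf-Snrpn promoter that is methylated on the maternal allele. Ube3a is expressed from both alleles in most cells and from the maternal allele in neurons, where a long antisense transcript, Snhg14, silences the paternal copy. Snhg14 is also the host of the Snord116 and Snord115 small nucleolar RNAs. The product of Smchd1 is needed for silencing on the inactive X chromosome and is also known to repress genes of this cluster. The lists carry no allele, so maternal and paternal acetylation could not be separated.

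The sequences around the start sites on which the gene results turn are given first. Each is the RefSeq window (GRCm38.p6) from 250 bases before to 50 bases after an annotated start, in the direction of transcription. Promoter windows were found for all 7 genes, and Snrpn, with 4 start sites, brought the distinct windows to 9. Capitals mark matches, on either strand, to TGCCGC (the core bound by Zfp57, which keeps imprints), TGCGCA (the core of the Nrf1 site) or CCATNTT (the core of the Yy1 site). These motifs do not overlap in the windows shown. The first window is the start shared by Snurf and Snrpn, at chr7:60005150-60005449 on the minus strand, and the second that of Ndn, at chr7:62348027-62348326 on the plus strand. Both starts had peaks in deleted cells only. Then follow Magel2, at chr7:62376729-62377028 on the plus strand, which had no peak, and Ube3a, at chr7:59228500-59228799 on the plus strand, with the highest peaks of the domain in both lists. The last is the long noncoding RNA A330076H08Rik, at chr7:61982306-61982605 on the minus strand, flanked by peaks of deleted cells.
Snurf and Snrpn: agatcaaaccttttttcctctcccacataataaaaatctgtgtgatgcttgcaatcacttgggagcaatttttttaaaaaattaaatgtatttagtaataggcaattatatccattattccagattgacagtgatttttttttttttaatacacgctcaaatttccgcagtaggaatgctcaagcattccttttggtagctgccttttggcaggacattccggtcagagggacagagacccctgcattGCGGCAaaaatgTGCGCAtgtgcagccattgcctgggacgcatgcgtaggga
Ndn: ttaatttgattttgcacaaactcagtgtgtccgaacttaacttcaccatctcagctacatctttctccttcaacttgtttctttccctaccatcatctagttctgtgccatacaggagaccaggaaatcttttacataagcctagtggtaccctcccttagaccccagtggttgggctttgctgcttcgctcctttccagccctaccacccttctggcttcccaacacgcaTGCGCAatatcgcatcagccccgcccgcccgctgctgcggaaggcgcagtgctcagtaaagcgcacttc
Magel2: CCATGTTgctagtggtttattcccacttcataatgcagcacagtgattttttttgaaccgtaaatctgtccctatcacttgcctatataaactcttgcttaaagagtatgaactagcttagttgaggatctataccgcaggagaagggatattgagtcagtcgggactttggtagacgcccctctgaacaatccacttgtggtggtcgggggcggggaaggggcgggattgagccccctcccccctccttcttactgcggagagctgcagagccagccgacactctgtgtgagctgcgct
Ube3a: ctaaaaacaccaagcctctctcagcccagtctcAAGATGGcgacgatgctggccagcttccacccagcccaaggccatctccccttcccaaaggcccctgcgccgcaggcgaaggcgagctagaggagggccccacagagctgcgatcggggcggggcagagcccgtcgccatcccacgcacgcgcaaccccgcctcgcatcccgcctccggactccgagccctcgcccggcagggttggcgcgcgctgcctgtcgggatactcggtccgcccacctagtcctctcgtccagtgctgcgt
A330076H08Rik: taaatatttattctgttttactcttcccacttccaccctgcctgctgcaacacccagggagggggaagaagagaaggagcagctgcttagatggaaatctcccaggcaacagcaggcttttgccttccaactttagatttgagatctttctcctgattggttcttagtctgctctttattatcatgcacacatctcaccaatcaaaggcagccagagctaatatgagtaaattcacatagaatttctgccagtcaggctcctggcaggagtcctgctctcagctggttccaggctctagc

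The windows differed widely in base composition. Over 32851 RefSeq promoter windows the median GC content was 52.7% and the median number of CpG was 7. The Ube3a window had 69.0% GC and 29 CpG. The Snurf and Snrpn window had 40.3% GC, the lowest of the 9, and 7 CpG. The windows of Ndn (51.0% GC, 11 CpG), Magel2 (51.0% GC, 10 CpG), Mkrn3 (53.3% GC, 15 CpG) and Peg12 (47.0% GC, 12 CpG) lay between them. The 3 upstream Snrpn starts had 45.0% to 48.0% GC and 2 to 4 CpG. These 3 windows were 79.7% to 81.4% identical to one another, against a median of 48.9% over the 153 pairs of the 18 distinct windows of the domain. TGCCGC was found in 1 of the 9 windows (Snurf and Snrpn) and in 11.6% of all windows. TGCGCA was found in 2 (Snurf and Snrpn, Ndn) and in 7.76% of all. CCATNTT was found in 3 (Ube3a, Magel2, Mkrn3) and in 16.1% of all. The A330076H08Rik window held no CpG and none of the motifs.

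The domain also holds the Mir344 array, 13 miRNA hairpins on the minus strand that gave 25 mature RefSeq entries with 18 distinct sequences. The mature sequences of the 4 hairpins within 1 kb of a peak follow, with the seed, bases 2 to 8, in capitals, and then 1 of a hairpin far from any peak, miR-344d-3p. Mir344 and Mir344-2 give the same mature pair.
miR-344-5p: aGUCAGGCuccuggcuagauuccagg
miR-344c-5p: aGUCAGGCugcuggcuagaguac
miR-344g-5p: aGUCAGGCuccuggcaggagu
miR-344-3p: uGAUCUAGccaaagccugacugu
miR-344c-3p: uGAUCUAGucaaagccugacagu
miR-344g-3p: cAGGCUCUagccaggggcuuga
miR-344d-3p: gAUAUAACcacugccagacuga
The seed GUCAGGC was common to the 5p arms of 7 of the 13 hairpins, the 4 near peaks and 3 others (Mir344b, Mir344d-1 and Mir344d-3). The seed GAUCUAG was found in the 3p arms of Mir344, Mir344-2 and Mir344c, and each of these hairpins had a peak of deleted cells within 1 kb. Mir344 and Mir344-2 also had a control peak there. Of 1005 miRNA hairpins of the genome, 28.0% had a deleted peak and 21.1% a control peak within 1 kb. The seed AUAUAAC was found in Mir344d-1, Mir344d-2, Mir344d-3 and Mir344e, and none of these had a peak within 1 kb in either list. They lie at the proximal end of the array, where no hairpin up to Mir344b had one, so seed and position cannot be told apart.

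A few facts of the whole series bear on the domain. The deleted ChIP library had 54194233 tags after filtering and the control library 42277672, a ratio of 1.28, and the whole lists stood in a ratio of 1.44. Among marker genes, 9 of 10 neural stem cell genes had a peak within 1 kb of a gene end in both lists, all but Pax6. The same held for 2 of 8 neuron genes (Map2 and Syt1), 1 of 5 fibroblast genes (Col1a1), 1 of 4 microglia genes (Tmem119), 0 of 4 endothelial genes, with Pecam1 in the control list only, and 0 of 4 pluripotency genes. Smchd1 itself had a peak there in both cultures (fold enrichment 7.72 in deleted and 8.88 in control cells), which says nothing of the floxed part. In cultures measured whole, a lower signal may be fewer acetylated cells or less acetylation per cell, which cannot be told apart.

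Every control peak of the domain was also called in deleted cells, and the deleted list held further, weaker peaks. Of its 36 peaks, 24 overlapped no control peak by 1 base or more, or 66.7% (exact Clopper-Pearson 95% interval 49.0 to 81.4), beside 50.6% over the whole deleted list. Of the 13 control peaks, 0 lacked a deleted partner (0% to 24.7%), beside 24.3% over the whole control list. These intervals treat peaks as independent, which neighbouring peaks of 1 library are not, and since the overlap of the lists chose the domain, nothing is read from the shares set side by side. The peaks covered 16.35 kb in deleted and 6.49 kb in control cells, a ratio of 2.52, and stood in a ratio of 2.77 by number. The same ratios were 1.48 and 1.44 for all peaks of chromosomes 1 to 19 and X. When peaks of both lists within 1 kb were merged, 23 loci remained, 7 of both lists, 16 of the deleted list only and 0 of the control list only. Over the genome 40.2% of loci were of the deleted list only and 11.9% of the control list only.

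The 12 deleted peaks with a control partner were wide and high, and the 24 without were narrow and low. Fold enrichment, the ratio of pileup at the summit to the local background, ran from 2.91 to 16.2 with a median of 5.12 in the first set and from 1.73 to 4.71 with a median of 3.26 in the second. None of the 24 reached a fold enrichment of 5, and over the whole list 1.72% of deleted-only peaks did. Median widths were 548.5 and 236 bases. The 24 had a median pileup, the number of overlapping fragments at the summit, of 20, with 14 the lowest and 77 the highest. Deleted-only peaks of the whole list had much the same size, with a median fold enrichment of 3.19, a width of 239 bases and a pileup of 19. Shared deleted peaks of the whole list had medians of 4.53 and 482 bases, so this contrast is not particular to the domain. The median distance from the 24 peaks to the nearest control peak was 41743 bases, and 9 of them lay within 10 kb of one.

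Sequencing depth bears on such low peaks. Where the input stood at its genome-wide level, the lowest pileup that passed the caller was 13 in deleted and 12 in control cells, or 2.40 and 2.84 per 10000000 ChIP tags. Of the 24 deleted-only peaks, 21 were at or above the control value on that scale and 3 below it. However, 6 of the 24 stood on a higher input background, where that limit does not apply. The same was not counted over the whole list. Its deleted-only peaks had a median pileup of 19, close to the 20 of the domain, so nothing is read from this count. When pileup and background were scaled down by the ratio of ChIP tags, 35 of the 36 deleted peaks and 23 of the 24 deleted-only peaks were kept. Over the whole deleted list 89265 of 91557 peaks were kept, so this scaling removed few peaks anywhere. When the deleted list was cut by p-value to the length of the control list, 63613 of its 91557 peaks were left. In the domain 26 peaks were left, 15 of them without a control partner, and 1 control peak then lost its partner. That limit fell among peaks of equal p-value, and with all of those kept the counts were 30, 18 and 0.

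**Figure D1:**
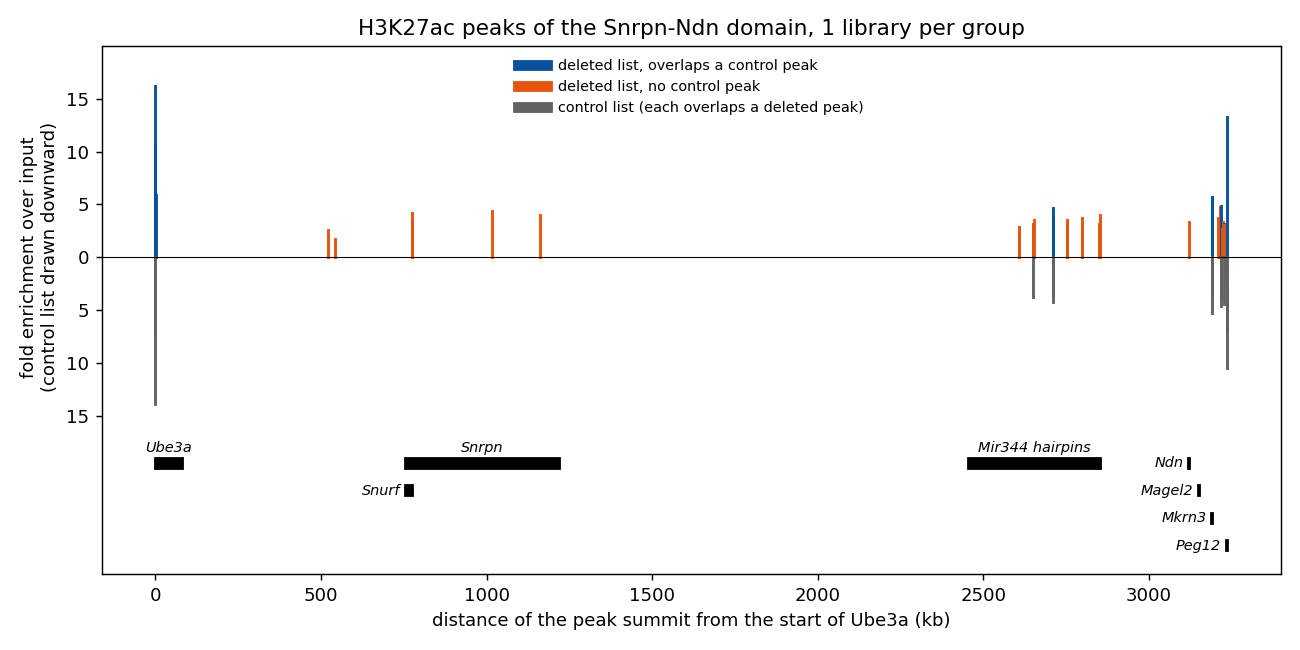
Fold enrichment of each H3K27ac peak (vertical axis, deleted list upward, control list downward) against the distance of its summit from the Ube3a start in kb, with the genes and the hairpin array as black bars. The highest lines of both lists stand at Ube3a (16.2 and 13.9) and Peg12 (13.3 and 10.5), and the 24 orange lines, deleted peaks without a control partner, stay below 5.

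The peaks were gathered at few places. The 1232.9 kb between Snrpn and the hairpin array, the 262.0 kb between that array and Ndn, and the 65.7 kb between Ndn and Mkrn3, which hold Magel2, had no peak in either list. By segment, the deleted and control lists had 3 and 2 peaks at Ube3a, 2 and 0 in the snoRNA arrays, 4 and 0 over Snurf and Snrpn, 14 and 3 in the Mir344 array, 1 and 0 at Ndn, 2 and 2 at Mkrn3, 9 and 3 between Mkrn3 and Peg12, and 1 and 3 at Peg12. The Mir344 array and the stretch from Mkrn3 to Peg12 thus held 11 and 6 of the 24 deleted-only peaks.

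At gene ends, 5 of the 7 genes had a peak within 1 kb in deleted cells (45.3% of 34328 genes did) and 3 of 7 in control cells (40.1%). The 2 genes of the deleted list only were Snurf and Ndn (6.65% of all genes were of this kind), and 0 of the 7 were of the control list only (1.44%). Ube3a, Mkrn3 and Peg12 had gene-end peaks in both lists, and Magel2 in neither. Snrpn had none at the ends of its longest annotated extent, but it shares the start site of Snurf, where both Snurf peaks lie. Of the 9 distinct annotated start sites of these genes, counted with the values known, 5 had a deleted peak within 1 kb and 3 a control peak (44.4% and 39.9% of all start sites did). The start of Peg12 was the 1 of the 9 inside a deleted peak, and 0 of the 9 lay inside a control peak (13.7% and 9.47% of all start sites).

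**Figure D2:**
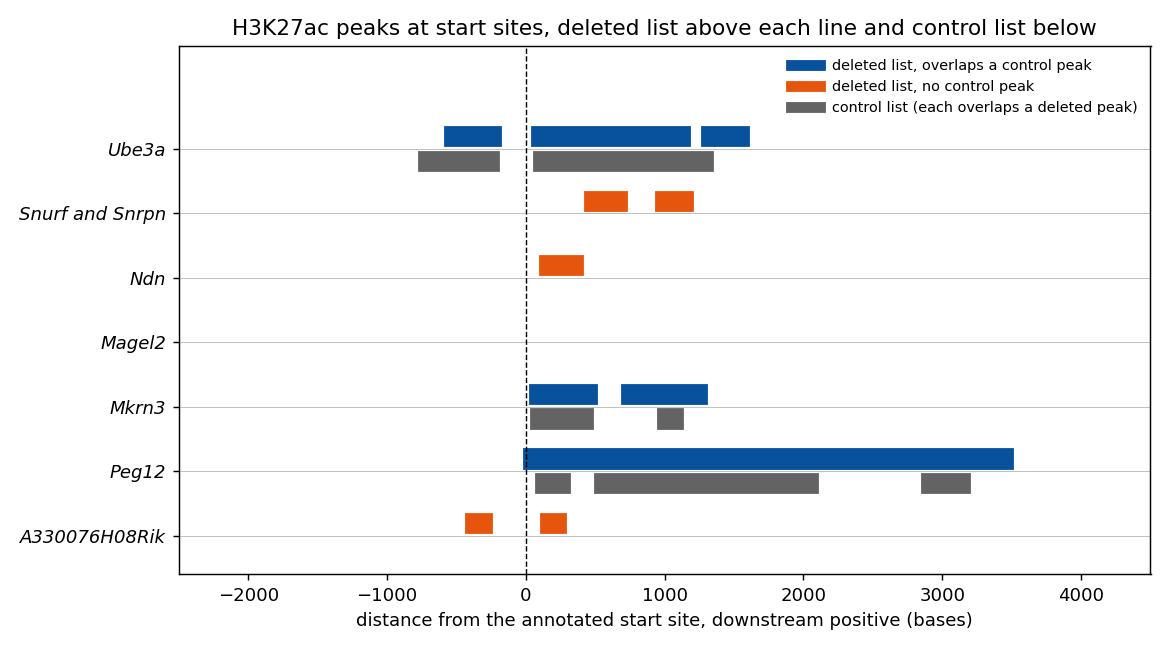
Peaks around annotated start sites, drawn by distance from the start in bases with downstream to the right, deleted list above and control list below each line. Ube3a, Mkrn3 and Peg12 have boxes of both lists, Snurf with Snrpn, Ndn and A330076H08Rik have boxes of the deleted list only, and Magel2 has none.

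Snurf and Snrpn share a transcript that encodes a small nuclear protein and SmN, a core protein of spliceosomal particles abundant in brain. Snurf (gene ID 84704) lies at chr7:59982495-60005199 and Snrpn (20646) at chr7:59982495-60450177, both on the minus strand. In deleted cells a peak at chr7:60004469-60004776 had a pileup of 24 and a fold enrichment of 4.20, with its nearer edge 423 bases downstream of the common start. A second, at chr7:60003998-60004262, had a pileup of 19 and a fold enrichment of 3.36. Neither reached the window printed above, and the control list had no peak within 773.9 kb of them. Only the higher peak kept its place at a −log10 q of 5 or more, with 7.37 against 4.25 for the other.

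Deeper in the Snrpn gene, 2 more deleted-only peaks were called. The peak at chr7:60244169-60244356 had a pileup of 25 and a fold enrichment of 4.37, and that at chr7:60391183-60391369 a pileup of 27 and a fold enrichment of 4.0. Both were narrow, at 188 and 187 bases. They lay inside the gene and away from its upstream starts, 103.9 kb from the nearest start in the first case and 58.8 kb in the second. The start at 60047978, which has no peak nearby, was 43.2 kb from the nearest deleted peak. No control peak fell anywhere in the 467.7 kb of Snrpn. By its count of 4 deleted peaks, all deleted-only, and 0 control peaks over the gene with 10 kb on each side, Snrpn had the same 4 counts as 66 genes of other chromosomes. The 3 with the closest highest fold enrichment were Gm36841, Gm40359 and Hspb8, of which Gm36841 and Hspb8 overlap on chromosome 5.

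Ndn encodes necdin, a MAGE-family protein of postmitotic neurons. The gene (17984) lies at chr7:62348277-62349928 on the plus strand. Its 1 peak in deleted cells, at chr7:62348377-62348686, began 100 bases downstream of the start, with a pileup of 19, a fold enrichment of 3.36 and a −log10 q of 4.25. The nearest control peak to it was 70.3 kb away. The Ndn peak matched the lower Snurf peak in pileup and fold enrichment, and both were lost at a −log10 q of 5. Magel2 (27385), which encodes another MAGE protein, lies at chr7:62376979-62381640, next to Ndn. Its start was 28.3 kb from the nearest deleted peak and 42.0 kb from the nearest control peak.

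Mkrn3, a makorin E3 ubiquitin ligase known for its part in the timing of puberty, was acetylated in both cultures. The gene (22652) lies at chr7:62417593-62420153 on the minus strand. In deleted cells the peak next to the start had a pileup of 33 and a fold enrichment of 5.71, and in control cells 25 and 5.25. Per 10000000 ChIP tags these pileups were 6.09 and 5.91, a ratio of 1.03 (exact binomial 95% interval 0.594 to 1.81). The second peak of the gene had a pileup of 31 in deleted and 17 in control cells, a ratio per tag of 1.42 (0.763 to 2.74). The second peak was 615 bases wide in deleted and 179 bases wide in control cells.

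Peg12, also known as Frat3, encodes a GSK3-binding protein of the Frat family. The gene (27412) lies at chr7:62461871-62464510 on the minus strand and had the second highest peak of the domain. In deleted cells a single peak of 3521 bases, at chr7:62461002-62464522, covered the whole gene with a pileup of 78 and a fold enrichment of 13.3. It was wider than 99.9% of the deleted list, in which 110 peaks were wider. In control cells 3 peaks stood in the same place. The middle one was 1604 bases wide with a pileup of 51 and a fold enrichment of 10.5, that nearest the start had 34 and 7.06, and that beyond the 3′ end had 17 and 2.57. The highest pileups of both lists lay 27 bases apart, and their ratio per tag was 1.19 (0.828 to 1.73). The control list thus had more peaks here, and the deleted list covered more bases, 3.52 kb against 2.19 kb.

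Ube3a encodes the ubiquitin ligase lost in Angelman syndrome. The gene (22215) lies at chr7:59228750-59310837 on the plus strand. Its highest peak had a pileup of 96 and a fold enrichment of 16.2 in deleted cells and of 68 and 13.9 in control cells. Per 10000000 ChIP tags these were 17.7 and 16.1, a ratio of 1.10 (0.799 to 1.53). The peak upstream of the start had pileups of 63 and 49, a ratio per tag of 1.00 (0.680 to 1.49). The start itself fell in a gap between the peaks, of 220 bases in deleted and 253 bases in control cells. A further deleted peak, with a pileup of 40 and a fold enrichment of 5.86, overlapped the end of the larger control peak. No peak of either list lay in the rest of the gene, which the annotated Snhg14 overlaps antisense from position 59272737 on.

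The height of shared peaks was compared pair by pair, and in all 11 pairs kept the interval of the ratio included 1. Each control peak was paired with the deleted peak that held its summit, which left 11 pairs when only the highest control peak of a deleted peak was kept. Their ratio of pileup per tag had a median of 1.10, with 0.669 the lowest and 1.42 the highest. By the same pairing the median ratio over 43064 pairs of chromosomes 1 to 19 and X was 0.950. The precision varied, from an interval of 0.799 to 1.53 at the highest Ube3a peak to one of 0.763 to 2.74 at the second Mkrn3 peak. Of the 12 deleted peaks with a partner, the further Ube3a peak was left out of the pairs because it held no control summit. It overlapped the flank of a control peak with its summit 1223 bases away, and its pileup of 40 against 68 gave a ratio per tag of 0.459 (0.302 to 0.688). Summits lay a median of 34 bases apart, 9 of 11 within 100 bases. Of the 11, 8 were wider in deleted cells, as were 68.0% of the pairs of chromosomes 1 to 19 and X.

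The largest number of peaks in the domain fell in the Mir344 array, mostly in loci of 2 or 3 peaks. The 402.2 kb array held 14 deleted peaks over 3.86 kb and 3 control peaks over 0.92 kb, with fold enrichments of 2.52 to 4.70 and of 3.53 to 4.24. The deleted peaks formed 7 loci, and 6 of them held 2 or 3 peaks, 13 peaks in all. The gaps between the last 2 peaks of these loci were 869, 329, 278, 354, 503 and 348 bases in chromosome order. Successive loci of this kind were 41.2, 61.8, 42.9, 44.5 and 52.5 kb apart. Control peaks were found at 2 of the 6 loci, those of Mir344 and Mir344-2. The array holds related copies of a hairpin, and how reads that fit several copies were treated is not given in the sources used here, so the place of reads within the array is uncertain.

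Hairpins lay beside the peaks at 4 of the 6 loci. Within 1 kb of a deleted peak were 4 of the 13 hairpins (28.0% of 1005 miRNA hairpins of the genome), and within 1 kb of a control peak 2 of 13 (21.1%). Mir344-2 overlapped a deleted peak with a pileup of 27 and a fold enrichment of 4.70, whose control partner had 20 and 4.24. Mir344 stood 4 bases from a deleted peak with a pileup of 31 and a fold enrichment of 2.91, whose control partner had 18 and 3.78. The order of the lists at Mir344 thus depends on the measure, and the ratio of pileup per tag was 1.34 (0.728 to 2.55). The local input background there was 10 in deleted cells, against a floor of 4.96. Mir344g stood 43 bases from a deleted peak with a pileup of 21, and Mir344c 98 bases from one with a pileup of 16. The nearest control peaks were 41.7 kb from Mir344g and 40.0 kb from Mir344c. The 7 hairpins at the proximal end of the array, from Mir344d-1 to Mir344b, were 45.4 to 152.8 kb from any deleted peak.

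**Figure D3:**
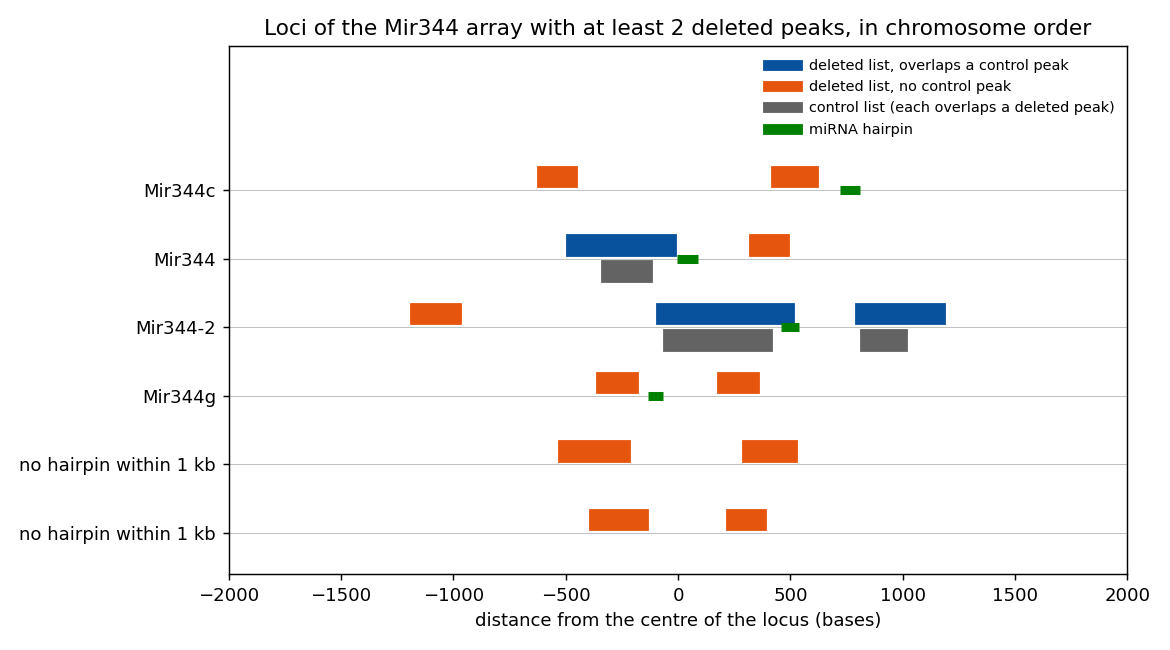
The 6 loci of the Mir344 array with at least 2 deleted peaks, aligned at their centres, with distance in bases on the horizontal axis, deleted peaks above each line, control peaks below it and hairpins in green. The last 2 deleted boxes of each locus are 278 to 869 bases apart, and the Mir344-2 locus has 3 deleted boxes. Control boxes appear at the loci of Mir344 and Mir344-2, and the last 2 loci have no hairpin within 1 kb.

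The array also holds long noncoding RNAs. A330076H08Rik, at chr7:61943895-61982355, starts within the Mir344g hairpin, so its window printed above contains the DNA of miR-344g-5p. Its start lay in the 354-base gap between 2 deleted peaks, with pileups of 21 and 20 and fold enrichments of 3.14 and 3.53, and 41.8 kb from the nearest control peak. Its promoter window was 66.8% identical to that of Gm29729 and 66.1% to 1 of the 2 windows of A230006K03Rik, further along the domain, and these had no peak within 1 kb. A230057D06Rik, at chr7:61705850-61927574, had 5 deleted peaks and 1 control peak within 1 kb of its body and none at its ends. Gm32061, which runs over Ndn, Magel2 and Mkrn3, had 3 deleted and 2 control peaks, all of them the Ndn and Mkrn3 peaks. Gm3257, a pseudogene, held the peaks of the Mir344-2 locus.

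The snoRNA arrays between Ube3a and Snurf had 2 deleted peaks and 0 control peaks in 671.7 kb, though 206 snoRNA genes are annotated in the domain. Both stood on a high input background. The peak at chr7:59749053-59749369, 4 bases from the snoRNA Gm22046, had a pileup of 37 on a local background of 14 and a fold enrichment of 2.53. The peak at chr7:59771482-59771664, overlapping the snoRNA LOC115486763, had a pileup of 77 on a background of 44 and a fold enrichment of 1.73, the lowest of the domain. The floor of the background was 4.96. These tandem copies are near identical, so the place of a read among them is uncertain. With the 4 peaks over Snrpn, Snhg14 (chr7:59272737-60450177) had 6 deleted and 0 control peaks along its body. Ipw, a noncoding RNA of the same stretch, had none.

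Between Mkrn3 and Peg12 a stretch of 39.7 kb carried 9 deleted and 3 control peaks, over 4.22 and 0.88 kb. No gene of the table lay within 1 kb of these peaks. Fold enrichments ran from 2.69 to 4.87 in deleted and from 3.83 to 4.58 in control cells. The 3 control peaks had pileups of 22, 18 and 21, and their deleted partners had 35, 28 and 18. Per tag the ratios were 1.24 (0.708 to 2.22), 1.21 (0.648 to 2.33) and 0.669 (0.336 to 1.32). The last of these pairs, at chr7:62454341-62454616 in the deleted list, was the only one of the 3 with the higher value in control cells. The 6 deleted-only peaks had pileups of 21, 20, 32, 15, 19 and 17 in chromosome order. That at chr7:62444022-62444650, with a fold enrichment of 4.71 and a −log10 q of 11.1, was the most enriched deleted-only peak of the domain. It lay 760 bases from a control peak, and all 6 lay within 10 kb of one.

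**Figure D4:**
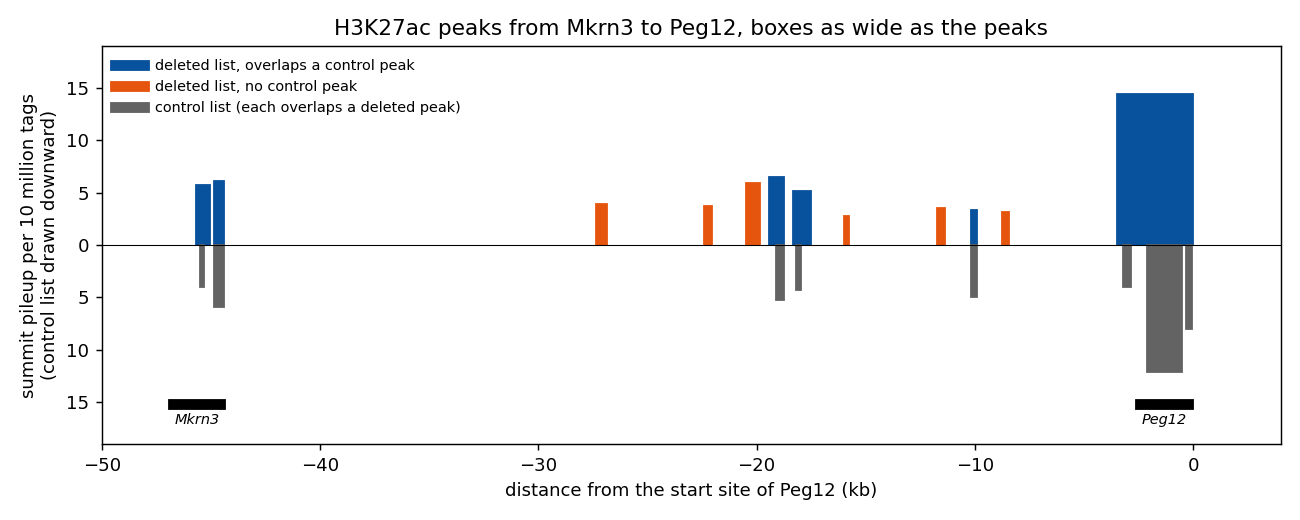
Pileup at the summit per 10000000 ChIP tags (vertical axis, deleted list upward, control list downward) for peaks from Mkrn3 to Peg12, against distance from the Peg12 start in kb, with each box as wide as its peak. In deleted and control cells, shared peaks reach 14.4 and 12.1 at Peg12 and 6.09 and 5.91 at the Mkrn3 start. The second Mkrn3 peak reaches 5.72 and 4.02, and the pair at chr7:62454341-62454616, higher in control cells, 3.32 and 4.97. The 6 orange boxes between the genes have no control box opposite.

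Outside the domain, peaks stopped well short of it. The last deleted peak before it, at chr7:59027927-59028107, was 190.6 kb away, and the first after it 970.8 kb away. In control cells these distances were 191.4 and 1280.2 kb. Of 17 neighbouring genes that are not members, 12 had gene-end peaks in both lists, 0 in the deleted list alone, 1 in the control list alone and 4 in neither. The gene of the control list alone was Gabra5, a receptor subunit for GABA, with a fold enrichment of 3.03. The 4 without were Oca2, Gabrg3, Atp10a and Chrna7. Tubgcp5, Cyfip1, Nipa1 and Nipa2, which lie with this domain in the human region, had peaks in both lists, as did Herc2 and 7 of the 8 genes beyond Peg12. Atp10a, the neighbour of Ube3a, had 19 deleted and 10 control peaks along its body.

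The stretch on the Ube3a side, from Herc2 to Atp10a, had 25 deleted and 14 control peaks, with 56.0% (34.9 to 75.6) of the deleted and 28.6% (8.39 to 58.1) of the control peaks in 1 list only. The stretch on the Peg12 side, from Chrna7 to Apba2, had 165 and 93 peaks, with 61.8% (53.9 to 69.3) and 31.2% (22.0 to 41.6) in 1 list only. The deleted list was longer than the control list on both sides too, with ratios of 1.79 and 1.77, beside 1.44 over the whole lists. The ratio of 2.77 in the domain is the surplus that chose it. Over the whole lists, 50.6% of the deleted and 24.3% of the control peaks were in 1 list only.

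Of 3 other imprinted domains set beside this one, 2 also had more deleted than control peaks. The Peg13-Trappc9-Kcnk9 domain on chromosome 15 had 39 deleted and 15 control peaks, of which 74.4% (57.9 to 87.0) and 40.0% (16.3 to 67.7) were in 1 list only. The Igf2r-Airn domain on chromosome 17 had 11 and 4, of which 10 (58.7% to 99.8%) and 3 (19.4% to 99.4%) were in 1 list only. The Kcnq1-Cdkn1c domain on chromosome 7 had 2 and 2, of which 1 and 1 were in 1 list only. Differences between the domains were not tested.

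**Figure D5:**
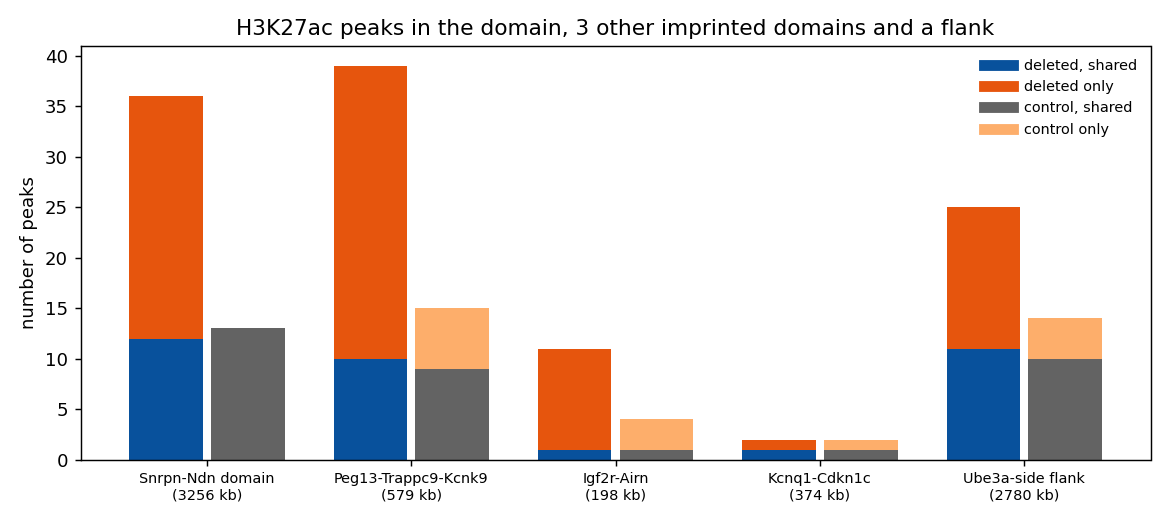
Number of H3K27ac peaks (vertical axis) in the Snrpn-Ndn domain, 3 other imprinted domains and the flank on the Ube3a side, with deleted peaks in the left bar and control peaks in the right bar of each pair and list-only peaks in orange shades. The Snrpn-Ndn bars reach 36 and 13, and its control bar has no list-only part.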

How the data were processed

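H3K27ac ChIP-seq of 1 Smchd1-deleted and 1 Smchd1-control culture, each with 1 input, was used as 2 deposited peak lists. Groups were taken from sample titles. The submitters' processing notes name bcl2fastq, Bowtie 0.12.9 and the mm10 build. Per the file headers, the authors ran MACS2 2.1.0.20140616 in narrow mode on each ChIP library with the matching input, setting a q-value limit of 0.05, keeping 1 tag a position and down-sampling whichever library was larger. Tags were 80 bases long, and fragments were modelled at 171 bases in deleted and 175 bases in control cells, as those headers state. The deposited lists hold the pileup signal at the summit, −log10 p and −log10 q, and the fold enrichment, a ratio to the local background, all as the authors' run wrote them. All of these peak values are the authors'.

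Peaks sharing at least 1 base were called shared. The local background was recovered as (pileup + 1) / fold − 1. Pileup was also given per 10000000 filtered ChIP tags. Genes and hairpins came from RefSeq on GRCm38.p6, which has the same primary chromosomes as mm10. Gene-end peaks lay within 1 kb of either end. Shares of peaks are given with exact Clopper-Pearson 95% intervals, and the same binomial gave those of pileup ratios. With 1 library per group there is no test between conditions. Overlap counting and the p-value formula used in scaling for depth were tested on simulated data. The scaling itself was not. Genes named in the text are the 7 members, genes of the domain within 1 kb of a peak, a list of neighbours and of other imprinted domains, and the 3 genes of other chromosomes most like Snrpn in peak counts. The noncoding genes without peaks and single peaks singled out were named after their values were seen. The members and lists were chosen with earlier results of these data known. Alternatives were stricter limits, other overlap rules, equal list lengths, scaling for depth, other domain and gene windows and, chosen after seeing the data, merging into loci, keeping tied peaks in lists of equal length, peaks at the input floor only, and start sites in place of gene ends. Peak sequences are not printed, and 1 gene of the list of neighbours is not reported here. Python 3.11.15, numpy 2.4.6, pandas 2.3.3 and scipy 1.17.1 were used.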

Additional observations from a re-analysis of the deposited data

How the results depend on the processing

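At a −log10 q of at least 5, the domain held 18 deleted and 8 control peaks, with 11 and 1 of them in 1 list only. Where fold enrichment had to reach 5, it held 6 and 5 peaks, with 1 deleted peak without a partner, and 3 members had a gene-end peak in deleted cells. With lists of equal length, 15 deleted peaks and 1 control peak were in 1 list only, and 18 and 0 with tied peaks kept. Merged into loci, a choice made after seeing the data, as were the tied-peak, input-floor and start-site counts, the peaks made 23 deleted and 7 control loci. These stricter and merged counts have fewer peaks by construction. Ndn had no peak at either stricter limit, and Snurf kept 1 at the first and 0 at the second. A peak without a partner under a stricter limit can have one below it. The other 46 counts stayed within 1.5 times, with 23 to 26 deleted-only peaks under other overlap rules, 23 after scaling for depth and 18 with peaks above the input floor left out. No paired analysis was possible because each group had 1 library. Depth limits the lowest peaks most, and no result has a replicate check.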
